A study of Mus musculus with 17 samples.

Results

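The first round of arrays of DA1-3b cells with 5 constructs, title numbers 2 to 6, was compared with the third round, title numbers 14 to 18. Each round held 1 array of each construct, so the comparison used 10 of the 17 arrays of the series, as 5 pairs of the same construct. The cells were DA1-3b, a Bcr-Abl+ murine line, from strain C3H eOuJ per the labels, and all of them were cultured in serum-supplemented DMEM and carried a transfected plasmid for the NF-kB subunit p65/RelA or for part of it. The constructs were wild-type p65 (WT), the point mutant D361E, which the series design calls non-cleavable, residues 1-361, residues 362-549, and both parts together (1-361+362-549). Round 2 (title numbers 8 to 12) held the same 5 constructs, and round 4 (title numbers 20 and 21) held WT and D361E. The labels do not say what the title number marks (a culture, an extraction or an order of work), and they give no date, so "round" stands here only for the order of these numbers. They also do not say that the arrays came from separate cultures or from more than 1 transfected line per construct, so the p-values measure only how far these arrays spread, and part of that may be technical. None of the 17 arrays is labelled as carrying the empty plasmid, so no such array was analysed here.

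Round 3 was high in glycolysis, hypoxia and cholesterol synthesis genes and low in genes for ribosome assembly and DNA replication, in every one of the 5 constructs. Cells short of oxygen stabilise HIF-1, which turns on glucose transporters, glycolytic enzymes and the mitophagy receptor Bnip3, and cells short of sterol activate SREBP-2, which turns on the cholesterol pathway. MYC and E2F factors drive ribosome assembly and DNA replication in dividing cells. The inhibitor p27, encoded by Cdkn1b, holds cells before S phase, whereas cyclin E1, encoded by Ccne1, takes them into it.

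Of 15358 genes tested, 4131 (26.9%) were called between round 3 and round 1 at a limma adjusted p under 0.05, with construct as a block. Of these 2178 were higher in round 3 (14.2% of genes tested) and 1953 lower (12.7%), and the median change over all genes was 0.04 on the log2 scale. A change of 1 log2 unit or more was found for 308 of the genes called higher and 258 of those called lower. For 3963 of the 4131, all 5 pairs moved the same way. The calls were made on these same pairs, which favours genes whose pairs agree. That count therefore cannot show whether the constructs changed alike. All 5 round 3 arrays lay above all 5 round 1 arrays for 1285 genes (8.37%) and below them for 1350 (8.79%). The count of calls was 1446 without the 362-549 pair, 1867 without the 1-361 pair, 1987 without the WT pair, 3563 without the D361E pair and 4586 without the 1-361+362-549 pair.

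Fewer genes were called between the constructs in the same 10 arrays, where each construct has 2 arrays. An F-test over the 4 construct terms called 345 genes (2.25%), and 107 of them were also called between rounds, which is 31.0% of the construct calls and 2.59% of the round calls. Whether the change with round depended on construct was tested over all 17 arrays, with round as a number from 1 to 4. No gene of 15161 was called there (limma, 0 called; 626, or 4.13%, at an unadjusted p under 0.05). A straight slope cannot follow levels that peak or dip in round 3, so round 3 was also set as a yes or no term against rounds 1 and 2 over 15 arrays, an alternative chosen after seeing the data. That fit had 2034 of 15194 genes (13.4%) at an unadjusted p under 0.05 and 1 (0.00658%) after adjustment, a probe without a gene name. Of the 62 genes named below 13 had an unadjusted p under 0.05 there, and 0 were called. All but Rela were picked for pairs that all moved one way or for a small adjusted p over pairs. That choice favours genes that changed alike in the constructs, so their count cannot show whether the change depended on construct. Correlations of the change across all genes between any 2 pairs ranged from 0.0997 to 0.688, where genes are not independent replicates and each array carries its own brightness and spatial trend. The number of genes that moved by more than 1 log2 unit in a pair was 729 in D361E, 1063 in 1-361, 1641 in 362-549, 1788 in WT and 2128 in 1-361+362-549.

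The arrays lay on 6 slides, and 4 of these held both a round 1 and a round 3 array, always of different constructs. The change in brightness was smaller than its spread over pairs: the log2 75th percentile of the processed signal changed by -0.05 ± 0.32 (SD, n = 5 pairs; exact paired permutation test, two-sided p = 0.75, where 0.0625 is the smallest that 5 pairs allow). Spots well above background made up 51.2% to 51.8% of each array in round 1 and 49.8% to 53.9% in round 3, and no spot was saturated. The median spike-in signal was lower in round 3 in 4 of 5 pairs (-0.28 ± 0.28 on the log2 scale, SD, n = 5; exact p = 0.1875), and its part in the results was not tested. With slide added as a fixed block over all 17 arrays, 5946 genes (38.7%) were called between rounds 3 and 1, among them 4013 of the 4131 with the same sign. The model over the same 17 arrays without slide called 5885, so the count of 5946 is to be set against that one and not against 4131. With slide in place of construct, a fit over the 10 arrays that leaves 3 residual degrees of freedom and does not remove the differences between constructs, 147 genes were called and 45 of the 61 calls named below were lost. In bulk RNA a lower share of some cells and less RNA per cell cannot be told apart.

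Gene levels below are log2 processed signals minus the 75th percentile of the array, and 5 values in a row follow the order WT, D361E, 1-361, 362-549, 1-361+362-549. Changes are round 3 minus round 1 on the log2 scale, as the estimate ± SE over 5 pairs, with the limma adjusted p over all genes tested. Levels of different genes come from different probes and are not compared. The counts of list members called stand against 14.2% of all genes tested called higher and 12.7% called lower. Probe positions are those of the array files, on build mm9, and the exon or untranslated region that holds a probe was not looked up.

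Genes of glucose uptake and of the response to low oxygen rose. Slc2a1, the glucose transporter GLUT1 (probe at 118809864 to 118809923 on chromosome 4 of mm9), read 3.39, 2.30, 3.68, 3.35 and 3.91 in round 1 and 5.47, 4.79, 5.99, 5.72 and 6.22 in round 3. D361E was the lowest in both rounds, and every round 3 array lay above every round 1 array. Its rise was 2.31 ± 0.09 (adjusted p = 0.000631), or 4.97-fold, and the 5 pairs lay between 2.08 and 2.49. Bnip3, the mitophagy receptor (probe at 146082760 to 146082819 on chromosome 7), read 6.08, 5.53, 5.86, 5.75 and 6.06 in round 1 and 7.51, 7.15, 7.59, 7.59 and 7.61 in round 3. The constructs were close to each other in each round and the rounds did not overlap. Bnip3 rose by 1.63 ± 0.10 (adjusted p = 0.00164), and its 3 probes gave 1.48 to 2.02. Ero1a, the oxidase that reoxidises disulphide isomerase in the endoplasmic reticulum (probe at 45904192 to 45904251 on chromosome 14), read 0.16, -0.01, 0.15, -0.38 and 0.53 in round 1 and 3.04, 1.87, 2.48, 2.57 and 3.76 in round 3. Among called genes with an ordinary symbol whose 5 pairs moved one way, Ero1a had the largest fitted rise, 2.65 ± 0.20 (adjusted p = 0.00223), with D361E lowest in round 3 and the rounds apart.

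Of the 33 genes on the glycolysis and hypoxia list 30 were tested, and 15 rose, 0 fell and 15 did not pass. Their median change was 0.51, against 0.04 over all genes, and the median within each pair was 0.46 in WT, 0.39 in D361E, 0.50 in 1-361, 0.49 in 362-549 and 0.76 in 1-361+362-549. On the 4 slides that held both rounds the list median lay between 0.34 and 0.85. The members that rose included the second transporter Slc2a3 (1.77 ± 0.14), the collagen hydroxylase P4ha1 (1.67 ± 0.18), the hexokinase Hk2 (1.28 ± 0.12), the phosphofructokinase Pfkp (1.28 ± 0.17), the pyruvate dehydrogenase kinase Pdk1 (0.87 ± 0.15) and the angiogenic factor Vegfa (0.84 ± 0.12), at adjusted p from 0.00223 to 0.00927. Several glycolytic enzymes at the lower end of the list did not pass, among them Ldha (0.11 ± 0.13), Gapdh (0.15 ± 0.14) and Pkm (0.19 ± 0.11). Hif1a, the oxygen-regulated factor itself, had a change of 0.06 ± 0.10 and did not pass (adjusted p = 0.666).

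The promoters of these genes were searched for ACGTG, the core of the HIF-1 binding motif, in the 250 bases before the gene start, on either strand (CACGT in the reverse reading). A window around the match nearest the gene start is shown for the 3 members described above, because their values are given in full above. Sequences are from RefSeq promoters of GRCm38.p6, on the strand of the gene, with the match in capitals.
Slc2a1, chr4:119108664-119108744, + strand: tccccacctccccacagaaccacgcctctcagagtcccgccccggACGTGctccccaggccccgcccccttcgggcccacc
Bnip3, chr7:138909564-138909658, - strand: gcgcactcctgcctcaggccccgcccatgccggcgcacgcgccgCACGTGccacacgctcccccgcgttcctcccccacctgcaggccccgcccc
Ero1a, chr14:45318586-45318680, - strand: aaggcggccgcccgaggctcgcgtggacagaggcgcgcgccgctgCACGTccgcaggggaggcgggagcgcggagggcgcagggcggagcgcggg
In Bnip3 the capitals cover 2 overlapping matches, ACGTG and CACGT, and in Ero1a the match is on the opposite strand. Of the 13 risen list members with a RefSeq promoter in the table, 9 held the motif, and so did 17 of the 28 tested members with a promoter. The motif was in 24.7% of the 9732 tested genes with a promoter and in 16.6% of all 32851 promoters. A match is a description of the letters and not of a bound site.

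Most cholesterol synthesis genes rose. Msmo1, the sterol C4-methyl oxidase (probe at 67196982 to 67197041 on chromosome 8), read 4.38, 4.25, 4.13, 4.07 and 4.74 in round 1 and 6.07, 5.54, 6.01, 6.06 and 6.00 in round 3. The highest round 1 array lay below the lowest round 3 array, which was D361E. Msmo1 rose by 1.62 ± 0.14 (adjusted p = 0.00226), or 3.08-fold. Lss, lanosterol synthase, read -0.36, -0.73, -0.48, -0.48 and 0.20 in round 1 and 0.80, 0.18, 0.66, 0.63 and 1.25 in round 3. Its rounds overlapped by 1 array, since D361E in round 3 lay below 1-361+362-549 in round 1, yet each pair rose by 0.91 to 1.15. Lss rose by 1.07 ± 0.09 (adjusted p = 0.00223).

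Of 24 cholesterol genes 23 were tested, and 15 rose, 0 fell and 8 did not pass, with a median of 0.68. The median within the pairs was 0.83 in WT, 0.49 in D361E, 0.92 in 1-361, 0.80 in 362-549 and 0.83 in 1-361+362-549. Within the 4 slides it ran from 0.06 to 1.26. The risen members ran along the pathway from Hmgcs1 (1.17 ± 0.12), which acts early, through Fdft1 (1.25 ± 0.13) and Sqle (0.98 ± 0.10) to Cyp51 (1.16 ± 0.14). They also included the regulator Srebf2 (1.00 ± 0.10). Ebp (-0.30 ± 0.10), which acts late in the pathway, lay below 0 and did not pass. The sterol element TCACNCCAC was in 1 of 9 risen members with a promoter (Hmgcs1), in 1 of the 16 tested members with one, in 1.22% of tested genes and in 1.05% of all promoters.

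Fatty acid genes moved less evenly. Of 14 listed, 12 were tested, and 6 rose and 1 fell, with a median of 0.40. The desaturase Fads1 rose by 0.75 ± 0.10 (adjusted p = 0.006), from between 1.97 and 2.69 in round 1 to between 2.65 and 3.22 in round 3, with 1 round 3 array, D361E, inside the round 1 range. The member that fell was Fasn, the fatty acid synthase itself. Fasn read -1.31, -1.23, -1.17, -0.93 and -0.95 in round 1 and -2.09, -1.85, -1.98, -1.87 and -1.82 in round 3, so that no round 3 array reached the round 1 range, and it fell by 0.80 ± 0.09 (adjusted p = 0.00348).

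**Figure D1:**
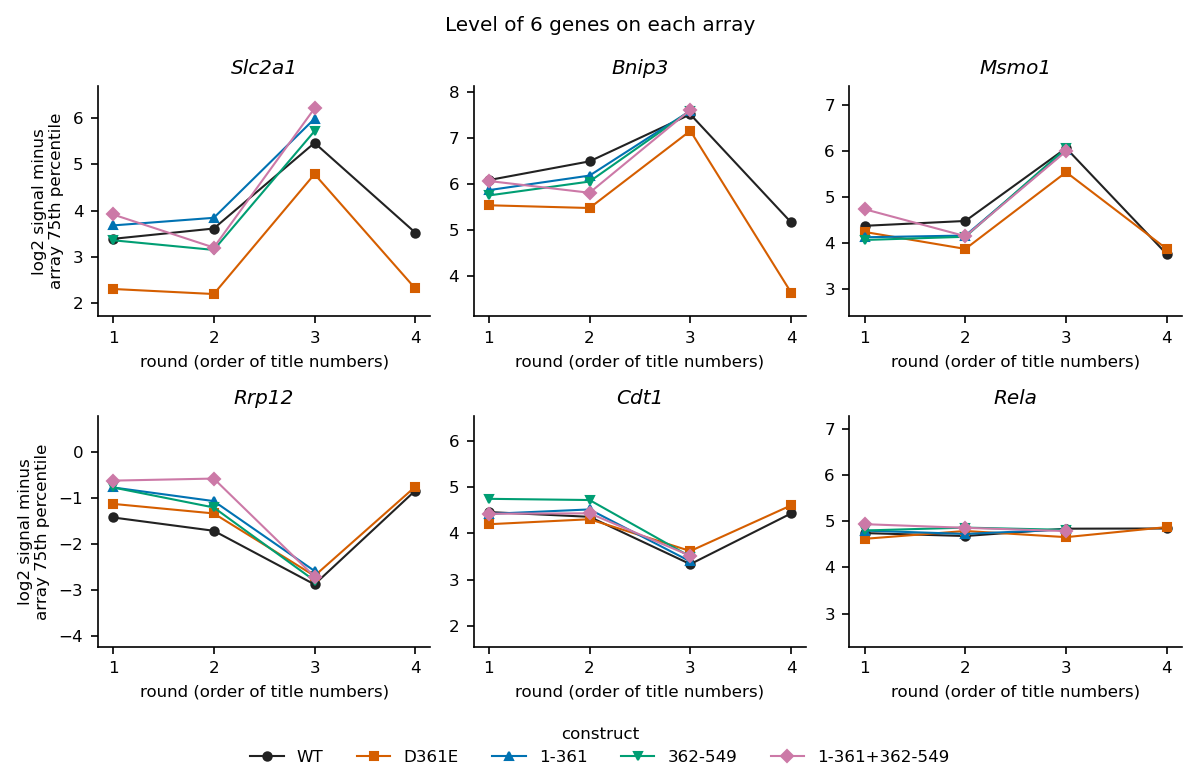
Level of 6 genes on each of the 17 arrays, as log2 signal minus the array's 75th percentile (vertical axes all span the same width), against the round from 1 to 4, with a line for each construct; rounds 1 to 3 have 5 arrays and round 4 has 2. In every construct Slc2a1, Bnip3 and Msmo1 are highest and Rrp12 and Cdt1 are lowest in round 3, while Rela stays between 4.62 and 4.94. Only WT and D361E have an array after round 3, so a return cannot be seen in the other constructs.

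Most genes for ribosome assembly fell, and their median change was the lowest of the 24 lists. Rrp12, a factor for export and maturation of ribosomal subunits (probe at 41945749 to 41945925 on chromosome 19), read -1.42, -1.13, -0.77, -0.77 and -0.62 in round 1 and -2.88, -2.69, -2.59, -2.80 and -2.71 in round 3. The round 3 arrays were close together and all lay below round 1. Rrp12 fell by 1.79 ± 0.12 (adjusted p = 0.00208). Ppat, which starts purine synthesis, read 0.26, 0.00, 0.32, 0.45 and 0.52 in round 1 and -1.75, -1.14, -1.42, -1.68 and -1.25 in round 3, again without overlap. Ppat fell by 1.76 ± 0.15 (adjusted p = 0.00226), and its other probe gave -1.36. Nop56, a core protein of box C/D small nucleolar particles, read 5.14, 5.18, 5.40, 5.55 and 5.21 in round 1 and 3.54, 3.92, 4.15, 3.66 and 3.88 in round 3. It fell by 1.47 ± 0.12 (adjusted p = 0.00225) without overlap; the array file places this probe on chromosome X and RefSeq the gene on chromosome 2, but all 3 Nop56 probes fell, by 1.47 to 1.72.

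All 31 genes of the ribosome biogenesis and MYC target list were tested, and 23 fell, 1 rose and 7 did not pass. The median was -1.04, and it was -1.05 in the WT pair, -0.67 in D361E, -0.95 in 1-361, -1.17 in 362-549 and -1.34 in 1-361+362-549. Within the 4 slides it lay between -1.27 and -0.76. RNA polymerase I subunits Polr1a (-1.44 ± 0.16) and Polr1b (-1.37 ± 0.15) fell, as did the pseudouridine synthase Dkc1 (-1.41 ± 0.17), the rRNA processing factors Bop1 (-1.29 ± 0.17) and Nolc1 (-1.63 ± 0.16) and the spermidine synthase Srm (-1.21 ± 0.19). Myc itself fell by 0.52 ± 0.12 (adjusted p = 0.0225). The abundant nucleolar proteins Ncl (-0.20 ± 0.15) and Npm1 (0.23 ± 0.10) did not pass, and the 1 member that rose was the translation repressor Eif4ebp1 (0.65 ± 0.10). The letters CACGTG, the E-box that MYC binds and which contains ACGTG, were in 5 of the 24 tested members with a promoter, of which 1 (Nop2) was among the 18 that fell. They were in 9.71% of tested genes and in 6.02% of all promoters.

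Few genes for the proteins of the finished ribosome were called. Of 36 ribosomal protein genes tested 1 rose, 0 fell and 35 did not pass, with a median of 0.15 and pair medians from -0.24 to 0.34. The member that rose was Rps2, by 0.40 ± 0.10 (adjusted p = 0.0251), from between 7.44 and 7.85 to between 7.76 and 8.32, with overlap. The change was 0.24 with quantile normalization, and the call was lost without the WT, the 1-361 or the 362-549 pair. Of 32 oxidative phosphorylation genes tested, 0 were higher and 1 was lower, with a median of -0.08. The lower one was Sdhc, a membrane anchor of succinate dehydrogenase (-0.32 ± 0.09, adjusted p = 0.0358), and it was -0.21 as the mean of all probes and lost the call without any 1 of the WT, D361E, 1-361 or 362-549 pairs.

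**Figure D2:**
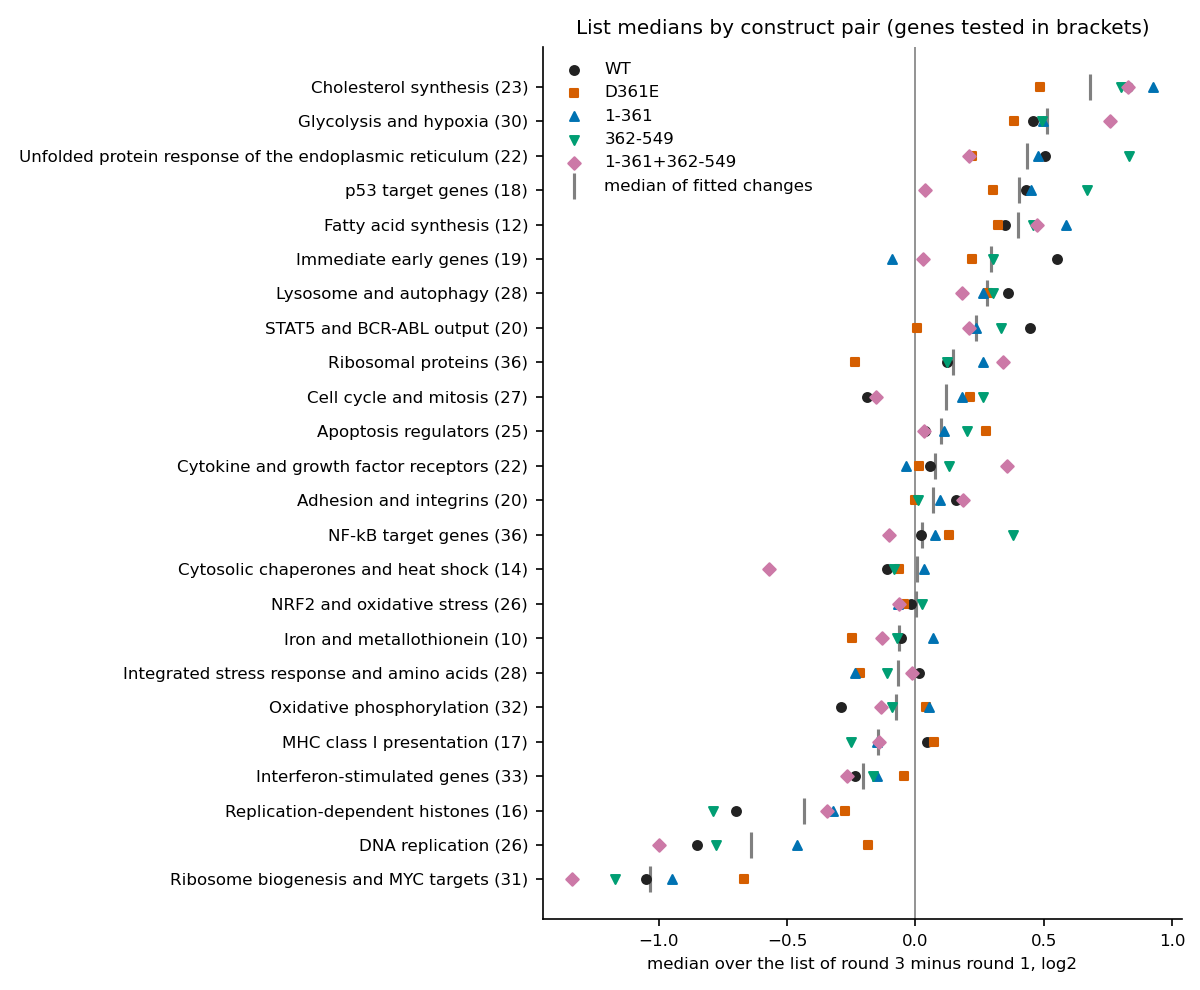
Median change of each of 24 gene lists, round 3 minus round 1 on the log2 scale, in each of the 5 construct pairs (points) and the median of the fitted changes (grey bars), with the number of genes tested in brackets. The 5 points of the cholesterol (0.49 to 0.92) and the glycolysis and hypoxia lists (0.39 to 0.76) lie right of 0, and those of the DNA replication (-0.999 to -0.19) and ribosome biogenesis lists (-1.34 to -0.67) lie left of it.

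Most DNA replication genes fell. Cdt1, which loads the replicative helicase (probe at 125096893 to 125096952 on chromosome 8), read 4.46, 4.20, 4.42, 4.75 and 4.43 in round 1 and 3.33, 3.62, 3.39, 3.50 and 3.52 in round 3. Cdc6, its partner in loading (probe at 98785169 to 98785228 on chromosome 11), read -1.55, -1.71, -1.66, -1.36 and -1.998 in round 1 and -3.26, -2.64, -2.88, -3.46 and -3.02 in round 3. For both genes every round 3 array lay below every round 1 array, with D361E moving least. Cdt1 fell by 0.98 ± 0.12 (adjusted p = 0.00437) and Cdc6 by 1.40 ± 0.19 (adjusted p = 0.00558).

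The Cdc6 promoter is shown because it was 1 of 2 fallen replication genes, with Mcm7, that held TTTCCCGC, an E2F-type site, among 13 with a promoter. The same 2 were the only holders among 21 tested members with a promoter, and 1.92% of tested genes and 0.895% of all promoters held it on either strand. The window is from RefSeq, GRCm38.p6, + strand, with the match in capitals.
Cdc6, chr11:98907968-98908065: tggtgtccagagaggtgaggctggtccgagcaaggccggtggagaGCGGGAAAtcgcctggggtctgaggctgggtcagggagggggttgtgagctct

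Of 26 replication genes, all tested, 17 fell, 0 rose and 9 did not pass, with a median of -0.64. The pair medians were -0.85 in WT, -0.19 in D361E, -0.46 in 1-361, -0.78 in 362-549 and -0.999 in 1-361+362-549, and within slides the median ran from -1.11 to -0.06. The helicase subunits Mcm2 (-1.18 ± 0.19), Mcm3 (-0.84 ± 0.17), Mcm4 (-0.80 ± 0.19), Mcm5 (-0.91 ± 0.17) and Mcm7 (-0.95 ± 0.14) fell, and Mcm6 (-0.44 ± 0.14) did not pass. Fen1 (-1.02 ± 0.21), which trims Okazaki fragments, and the maintenance methylation factor Uhrf1 (-1.08 ± 0.17) fell as well. The clamp Pcna (-0.35 ± 0.19) and the ribonucleotide reductase subunit Rrm2 (0.13 ± 0.10) did not pass.

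Few genes of mitosis were called. Of 27 cell cycle and mitosis genes tested, 2 rose, 2 fell and 23 did not pass, with a median of 0.12 and pair medians from -0.19 to 0.26. The 2 called members of smallest adjusted p act at the entry to S phase. Ccne1 read 2.59, 2.38, 2.40, 2.53 and 3.15 in round 1 and 0.64, 1.36, 1.02, 0.10 and 1.36 in round 3, and fell by 1.71 ± 0.20 (adjusted p = 0.00408). Cdkn1b read 2.06, 1.87, 1.91, 1.87 and 1.86 in round 1 and 3.01, 2.60, 2.77, 3.10 and 2.70 in round 3, and rose by 0.92 ± 0.10 (adjusted p = 0.00354). Neither gene had overlapping rounds, and the round 1 arrays of Cdkn1b lay close together (SD 0.08). Mki67 (-0.02 ± 0.09), Cdk1 (-0.07 ± 0.15) and Top2a (0.28 ± 0.10), marks of cycling cells, did not pass.

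Histone genes expressed with replication moved mostly down. Of 24 listed, 16 were tested, and 8 fell and 2 rose, with a median of -0.43. H1f3, the linker histone H1.3, read -3.56, -3.74, -4.28, -3.50 and -3.35 in round 1 and -6.48, -6.54, -6.92, -6.68 and -6.08 in round 3, where it was not well above background on any of the 5 arrays, so that it was at least 2.32-fold lower (fitted change -2.85 ± 0.11, adjusted p = 0.000631; the bound sets the round 1 mean against the lowest signal well above background on each round 3 array). With normexp background correction its change was -0.98. H3c1 read 0.42, -0.10, 0.15, 0.64 and 0.66 in round 1 and -1.11, -1.40, -1.03, -1.28 and -0.84 in round 3, apart, and fell by 1.49 ± 0.13 (adjusted p = 0.00225). Histone genes are near-identical copies, so that a probe may read several of them.

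**Figure D3:**
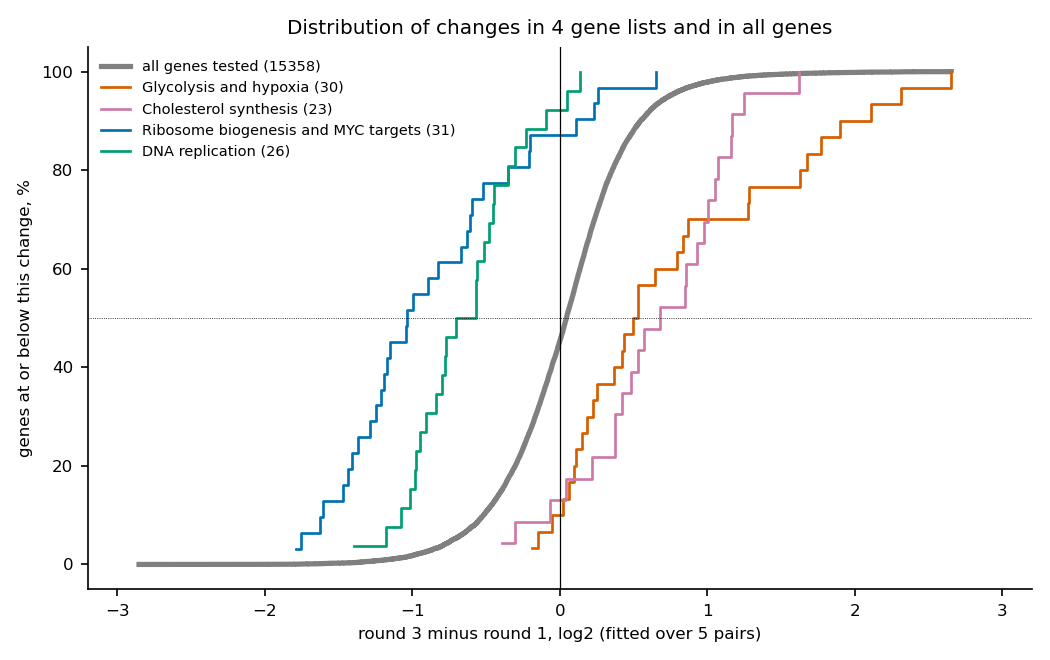
Cumulative share of genes (vertical axis, %) at or below each change of round 3 minus round 1 (horizontal axis, log2, fitted over 5 pairs), for all 15358 genes tested and for 4 lists. The curve of all genes crosses 50% at 0.04, the cholesterol and the glycolysis and hypoxia curves cross at 0.68 and 0.51, and those of ribosome biogenesis and DNA replication cross at -1.04 and -0.64.

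Genes of protein folding in the endoplasmic reticulum rose where they were called. Of 22 unfolded protein response genes of the endoplasmic reticulum, all tested, 10 rose and 0 fell, with a median of 0.43 and pair medians from 0.21 to 0.83. Xbp1, the transcription factor of that response, rose by 0.87 ± 0.11 (adjusted p = 0.00496), from between 4.76 and 5.26 to between 5.55 and 6.48, and Edem1, which marks misfolded glycoproteins for removal, by 0.85 ± 0.13 (adjusted p = 0.00786), from between -0.31 and 0.69 to between 0.83 and 1.32. The rounds were apart for both genes. Of 14 cytosolic chaperone genes tested 1 rose (Hspa4l, 0.61 ± 0.08) and 3 fell, with a median of 0.00. The co-chaperone Ahsa1 fell by 0.84 ± 0.19 (adjusted p = 0.0219), and the call was lost without the WT, the 1-361 or the 362-549 pair.

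The integrated stress response list was called in both directions, 3 higher and 7 lower of 28 tested, with a median of -0.07. Among the falls were the mitochondrial serine enzyme Shmt2 and the arginine transporter Slc7a1. Shmt2 read 3.38, 2.90, 2.94, 3.40 and 3.59 in round 1 and 2.27, 2.29, 1.92, 2.15 and 2.45 in round 3, and fell by 1.02 ± 0.12 (adjusted p = 0.00369). Slc7a1 fell from between 4.49 and 4.73 to between 3.55 and 4.01, by 0.89 ± 0.11 (adjusted p = 0.00496). Their rounds did not overlap. The members that rose were the stress factors Ddit3 (1.54 ± 0.29), Trib3 (0.95 ± 0.22) and Cebpg (0.52 ± 0.13), while Atf4 (-0.01 ± 0.12) did not pass. Shmt1, the cytosolic counterpart of Shmt2, fell by 1.80 ± 0.27 (adjusted p = 0.00719), from between -2.18 and -0.34 to between -3.80 and -2.92; its change was -1.12 with normexp, and its other probe gave -1.03.

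Of 26 NRF2 and oxidative stress genes tested 2 rose and 5 fell (median 0.00), which is the share called over all genes, 26.9%. Hmox1, which breaks down haem, read 1.90, 2.08, 2.08, 2.24 and 1.96 in round 1 and 3.93, 3.21, 3.39, 3.58 and 4.00 in round 3, and rose by 1.57 ± 0.17 (adjusted p = 0.00314). Gclc, which starts glutathione synthesis, fell by 0.54 ± 0.10 (adjusted p = 0.0124), and the call was lost without the 1-361 or the 362-549 pair. Of 10 iron and metal genes 2 rose and 3 fell, among them the transferrin receptor Tfrc, which fell by 0.94 ± 0.09 (adjusted p = 0.00243; its 3 probes gave -0.94 to -0.39, and their mean -0.62), and the zinc exporter Slc30a1, which rose by 0.96 ± 0.10 (adjusted p = 0.00297).

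Of 28 lysosome and autophagy genes tested 9 rose (32.1%, against 14.2% of all genes) and 1 fell (3.57%, against 12.7%; median 0.28, pair medians from 0.18 to 0.36). The cholesterol carrier Npc2 rose by 0.66 ± 0.10 (adjusted p = 0.00655), from between 2.78 and 3.22 to between 3.34 and 3.89, and the autophagy kinase Ulk1 by 0.89 ± 0.19. The glucuronidase Gusb, often used as a reference gene, fell by 0.75 ± 0.13 (adjusted p = 0.0111), a call lost without the 362-549 pair. Of 18 p53 target genes 8 rose (44.4%) and 2 fell (11.1%; median 0.41, pair medians from 0.04 to 0.67). The death receptor Fas rose by 1.03 ± 0.18 (adjusted p = 0.0103), from between 0.10 and 1.19 to between 1.63 and 2.14. The bypass polymerase Polk rose by 1.03 ± 0.16 (adjusted p = 0.0072), from between -1.90 and -1.51 to between -1.08 and -0.03. Both were without overlap, but the other Polk probe gave only 0.42. Cdkn1a, the best known target, rose by 0.45 ± 0.11 (adjusted p = 0.0251), and Mdm2 (0.39 ± 0.14) did not pass.

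The apoptosis genes that rose included both killer and survival genes. Of 25 tested 9 rose and 1 fell, with a median of 0.10. Bmf, a BH3-only killer protein, read -1.68, -1.11, -1.80, -1.56 and -2.84 in round 1 and -0.29, -0.31, -0.61, -0.12 and -0.87 in round 3, apart, and rose by 1.36 ± 0.17 (adjusted p = 0.0045). The BH3-only genes Bbc3 (0.89 ± 0.19) and Bcl2l11 (0.91 ± 0.24) rose too, and so did the survival genes Mcl1 (0.75 ± 0.12) and Birc2. Birc2, the ubiquitin ligase cIAP1, read -0.25, -0.39, -0.04, -0.08 and -0.22 in round 1 and 1.09, 0.61, 0.84, 1.11 and 0.65 in round 3, and rose by 1.06 ± 0.11 (adjusted p = 0.00276). Bcl2 (0.26 ± 0.12) and Bcl2l1 (0.18 ± 0.08) did not pass.

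Of 22 listed STAT5 target and feedback genes, which Bcr-Abl and other signals can drive, 20 were tested, with 5 higher, 1 lower and a median of 0.24. The activity of the Bcr-Abl kinase itself was not measured. Pim2, a survival kinase, read 0.75, 0.75, 1.33, 1.17 and -0.87 in round 1 and 3.22, 2.19, 3.43, 3.83 and 2.37 in round 3. The rounds were apart, and 1-361+362-549 was the lowest in round 1. Pim2 rose by 2.38 ± 0.25 (adjusted p = 0.00291), more than Pim1 (0.64 ± 0.17) or Cish (0.66 ± 0.19), while Socs2 (-0.15 ± 0.08) and Ccnd2 (-0.06 ± 0.13) did not pass. Dusp6, a phosphatase that answers ERK, rose by 0.63 ± 0.10 (adjusted p = 0.00731), from between 3.81 and 4.67 to between 4.59 and 5.36, with overlap.

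Immediate early genes were called in both directions, 7 higher and 6 lower of 19 tested, with a median of 0.30. Dusp2, a nuclear phosphatase of activated blood cells, read 1.93, 1.76, 2.25, 2.31 and 1.55 in round 1 and 0.24, 0.45, 0.58, 0.40 and -0.16 in round 3, and fell by 1.66 ± 0.11 (adjusted p = 0.00194). Klf6, a zinc finger factor, read 1.95, 2.08, 2.44, 2.37 and 1.68 in round 1 and 3.76, 3.10, 3.45, 3.66 and 2.76 in round 3, and rose by 1.24 ± 0.14 (adjusted p = 0.0036). Neither overlapped between rounds. Fos fell by 0.57 ± 0.17 and Jun rose by 0.53 ± 0.14 (adjusted p = 0.0494 and 0.0361).

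The NF-kB target list, which bears on the factor that the constructs carry, had a median near that of all genes. Rela read 4.75, 4.62, 4.80, 4.80 and 4.94 in round 1 and 4.84, 4.66, 4.82, 4.82 and 4.79 in round 3, a change of 0.00 ± 0.09 (adjusted p = 0.978), by a probe at 5648070 to 5648129 on chromosome 19 (mm9). Whether this probe reads the transfected forms is not known here, so it does not check the labels. Of 57 NF-kB target genes 36 were tested, and 6 rose and 4 fell, with a median of 0.03 and pair medians from -0.10 to 0.38. Besides Birc2, those that rose included Il15 (2.15 ± 0.32), Ccr7 (0.94 ± 0.19) and Ccl4 (0.92 ± 0.16). Gadd45b, a stress sensor, read 0.45, 0.52, 0.55, 0.78 and -0.20 in round 1 and -0.21, -0.48, -0.59, -0.32 and -0.84 in round 3, narrowly apart, and fell by 0.91 ± 0.11 (adjusted p = 0.00488). The inhibitors Nfkbia (-0.10 ± 0.18) and Tnfaip3 (-0.02 ± 0.22) did not pass.

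Of 33 interferon-stimulated genes tested 10 were lower (30.3%, against 12.7% of all genes) and 1 was higher (3.03%, against 14.2%), with a median of -0.20 and pair medians from -0.27 to -0.05. Oas2, an antiviral synthetase, read 0.52, 0.13, 0.26, -0.37 and 1.79 in round 1 and -0.45, -0.38, -1.01, -1.57 and 0.86 in round 3, and Isg15, a ubiquitin-like modifier, read -0.37, -1.32, -1.04, -0.89 and 0.87 and -1.73, -1.97, -1.77, -1.76 and -0.32. Both overlapped between rounds, because 1-361+362-549 lay far above the other constructs in each round. Oas2 fell by 0.98 ± 0.13 (adjusted p = 0.0054) and Isg15 by 0.96 ± 0.13 (adjusted p = 0.00577), calls that were lost without pairing by construct. Usp18, a protease that removes Isg15, rose by 0.87 ± 0.18. Of 17 MHC class I genes 6 rose and 4 fell (median -0.14): H2-T22 rose by 0.69 ± 0.12 and the peptide trimmer Erap1 fell by 0.73 ± 0.12 (adjusted p = 0.011 and 0.00862), with 2 of 5 round 3 arrays well above background for Erap1.

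Genes of the cell surface were called in both directions. Of 22 cytokine and growth factor receptor genes 3 rose (13.6%) and 1 fell (4.55%; median 0.08). Tnfrsf1a, the main TNF receptor, rose by 0.49 ± 0.09 (adjusted p = 0.0118), from between 0.88 and 1.31 to between 1.36 and 1.71, a call lost without the 1-361 or the 362-549 pair. Csf2ra, a chain of the GM-CSF receptor, was well above background on all 5 round 1 arrays and on none in round 3, and was at least 1.72-fold lower (fitted change -0.93 ± 0.09, adjusted p = 0.00244; -0.58 with normexp). Of 20 adhesion genes 6 rose (30% against 14.2% of all genes) and 3 fell (15% against 12.7%; median 0.07). Icam2, an adhesion ligand of leucocyte integrins, fell by 1.17 ± 0.23 (adjusted p = 0.0139). Cd47, the signal against engulfment, read 3.72, 3.61, 3.96, 3.79 and 3.72 in round 1 and 4.84, 4.48, 4.99, 4.99 and 4.54 in round 3, and rose by 1.01 ± 0.10 (adjusted p = 0.00251), and Pecam1 rose by 0.68 ± 0.11 (adjusted p = 0.00879), both without overlap.

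Genes outside the lists were also among the 10 named for the size of their rise. Ccng2, cyclin G2, which is linked to cell cycle exit, read -1.91, -2.73, -2.02, -2.42 and -0.76 in round 1 and 1.00, -0.20, 0.40, 0.83 and 0.99 in round 3, and rose by 2.57 ± 0.21 (adjusted p = 0.00223). Kdm4b, an oxygen-dependent histone demethylase, read 1.74, 1.66, 1.78, 1.66 and 1.97 in round 1 and 4.34, 3.64, 4.16, 4.18 and 4.03 in round 3, and rose by 2.30 ± 0.12 (adjusted p = 0.0013). Both were apart between rounds, and the round 1 arrays of Kdm4b lay close together (SD 0.13). Cysltr1, a leukotriene receptor, rose by 2.39 ± 0.11 (adjusted p = 0.00115) from between -2.35 and -1.17 to between -0.05 and 1.33, and Maff, a small Maf factor, by 2.31 ± 0.21 (adjusted p = 0.00245) from between -1.41 and -0.69 to between 0.57 and 1.93. Neither of these overlapped.

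A further 3 rises were less even. Castor1, an arginine sensor of the mTORC1 pathway, rose by 2.35 ± 0.42 (adjusted p = 0.0109; 1.19 with normexp), with 4.39 in the 1-361+362-549 pair and 1.37 to 2.25 in the others. In round 1 its 1-361+362-549 array read -6.31, against -2.69 to -2.29 in the others, and 4 of 5 round 1 arrays were well above background. Gipr, an incretin receptor, rose by 2.30 ± 0.47 (adjusted p = 0.0156), a call lost without the 362-549 pair. Gem, a small GTP-binding protein, rose by 2.40 ± 0.25 (adjusted p = 0.00296; 0.53 with normexp), but only 1 of 5 round 1 arrays was well above background, the rounds overlapped, and the call was lost without pairing by construct.

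Genes outside the lists were among the 10 falls named for their size as well. Fry, which has roles at the spindle, read 0.94, 0.44, 0.48, 0.95 and 1.43 in round 1 and -1.38, -0.69, -1.20, -1.51 and -0.86 in round 3, and fell by 1.98 ± 0.21 (adjusted p = 0.00296). Alkbh2, which repairs alkylated DNA, read -1.67, -1.76, -1.24, -1.10 and -1.51 in round 1 and -3.87, -3.09, -3.31, -3.84 and -2.93 in round 3, and fell by 1.95 ± 0.22 (adjusted p = 0.00348). The rounds were apart for both. Trim2, a ubiquitin ligase, fell by 2.08 ± 0.43 (adjusted p = 0.0164; -0.92 with normexp), with a change of -0.04 in the 1-361+362-549 pair, and the call was lost without the WT, the 1-361 or the 362-549 pair. Trim2 was well above background on only 2 of 5 round 3 arrays. Rnf150 fell by 2.08 ± 0.35 (adjusted p = 0.00965; -1.32 with normexp), with overlap and a call lost without pairing by construct. Dnah10 (-1.81 ± 0.17, with overlap) and Tssk6 (-1.76 ± 0.20, without) were dim, well above background on 1 of 5 round 3 arrays each, and their changes with normexp were -0.91 and -0.78.

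Round 2 differed from round 1 in fewer genes than from round 3. Round 2 against round 1 called 0 of 15335 genes (0%; limma; 3202, or 20.9%, had an unadjusted p under 0.05), and 4 in 1 model over all 17 arrays, but 1154 with slide as a fixed block and 1568 without scaling between arrays. Round 3 against round 2 called 3906 of 15365 (25.4%), 1833 higher (11.9%) and 2073 lower (13.5%); the count was 1098 without the WT pair, 1079 without the 362-549 pair and 2038 without the 1-361 pair. These comparisons share the round 1 or the round 3 arrays with the main one. Slc2a1 changed by -0.13 ± 0.14 from round 1 to round 2 and by 2.44 ± 0.18 from round 2 to round 3. The same steps were -0.15 ± 0.12 and 1.77 ± 0.09 for Msmo1, -0.24 ± 0.09 and -1.55 ± 0.15 for Rrp12, and 0.02 ± 0.07 and -0.999 ± 0.10 for Cdt1. Some named genes took another course. H3c1 had -1.12 ± 0.20 at the first step and -0.36 ± 0.22 at the second (limma adjusted p = 0.168 and 0.254, neither called). Tfrc had -0.57 ± 0.23 and -0.36 ± 0.22, Gadd45b -0.57 ± 0.12 and -0.34 ± 0.08, and Erap1 -0.37 ± 0.20 and -0.36 ± 0.17.

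Some lists crossed their round 1 level in the 2 arrays of round 4 and others did not. Slc2a1 read 3.52 in WT and 2.31 in D361E there, against 3.39 and 2.30 in round 1. Bnip3 read 5.16 and 3.64, below both its round 1 values. Relative to round 1, the glycolysis and hypoxia list had a median of -0.15 in WT and -0.57 in D361E, the cholesterol list -0.40 and -0.25, the ribosome biogenesis list 0.35 and 0.60, and the replication list 0.40 and 0.93. Each of these has the opposite sign to round 3, in 1 array of each construct and with no replicate check. Other lists did not cross in this way. The p53 target median was 0.29 in WT and 0.14 in D361E relative to round 1, and -0.05 and -0.19 relative to round 3. The lysosome median was 0.22 and 0.07 relative to round 1, and -0.23 and -0.16 relative to round 3. That of the histones was -0.43 and -0.03 relative to round 1, and 0.24 and 0.13 relative to round 3. Cd47 read 4.19 in both arrays, against 3.72 and 3.61 in round 1, and H3c1 stood at -1.26 in WT and -1.22 in D361E, near its round 3 levels.

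**Figure D4:**
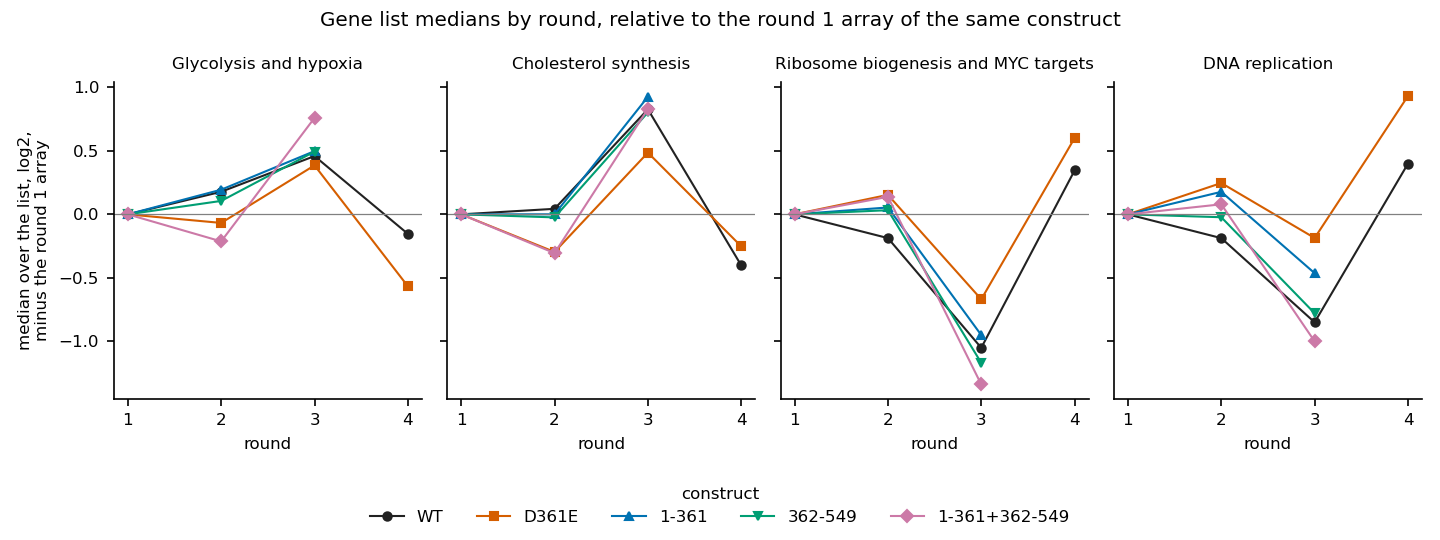
Median of 4 gene lists on each array relative to the round 1 array of the same construct (log2, vertical axis) against round, with a line for each construct. Round 2 lies between -0.31 and 0.25 in all 4 lists, round 3 is above 0 for the glycolysis and hypoxia and the cholesterol lists and below 0 for the other lists, and the WT and D361E arrays of round 4 lie on the opposite side of 0.

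Markers of other blood and stromal cells changed in few cases. The labels name no lineage for DA1-3b, and of 137 markers on 11 lists 60 were tested, of which 7 rose and 1 fell; 7 lists had no call. The macrophage list had 2 of 7 tested genes higher, Lyz1 (0.52 ± 0.11) and Lyz2 (0.79 ± 0.19), while Cd14, Mrc1, C1qa and C1qc did not pass the filter on dim probes. Its summed level (log2 of the summed signals over the array's 75th percentile) ran from 1.14 to 2.42 in round 1 and from 1.67 to 2.58 in round 3. The natural killer list had 2 of 2 tested higher, the granule genes Gzmb (1.25 ± 0.25) and Prf1 (0.59 ± 0.14), with Ncr1 and Klrb1c too dim to test and summed levels of -1.36 to 4.94 and -0.87 to 6.49. Among megakaryocyte genes Ppbp (0.95 ± 0.15) and Itga2b (0.44 ± 0.09) rose and Itgb3 fell by 0.48 ± 0.12, 3 of 10 tested, with summed levels of 5.48 to 7.37 and 5.57 to 7.77. The erythroid factor Gata1 rose by 0.36 ± 0.11, 1 of 10 tested, with summed levels of 6.00 to 7.53 and 6.62 to 8.25. The part of these genes in the other results was not tested.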

How the data were processed

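RNA of each sample was labelled with Cy3 and hybridised to a 1-colour Agilent array (probe positions on mm9). The authors' deposited files hold spot intensity on a linear scale, which per the file headers the scanner software Feature Extraction (Agilent, 10.7.3.1) had corrected for background and a spatial trend. The deposited series table equals these values (largest relative difference 0). From there, log2 processed signals were scaled by subtracting each array's 75th percentile over spots that were not controls. Control and outlier spots were left out, spots of 1 probe were averaged, and 132 of 39429 probes lacking a usable spot on at least 1 array were dropped. A probe was kept when well above background on at least 5 of the 10 arrays compared. RefSeq accessions (GRCm38.p6) named 27507 probes, and 11790 kept the array's name. The brightest probe stood for a gene; of 1080 called genes with several probes, 898 had all probes moving one way.

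Rounds were compared in R 4.3.3 by linear models (lmFit, then eBayes; limma 3.58.1), with construct as a block and Benjamini-Hochberg adjustment over all genes, called under 0.05. The pairs come from the construct in the labels. Scripts were tested on simulated data. The comparison and the lists were chosen with earlier results of these data known. Genes named were the 10 largest rises and 10 largest falls among called genes with an ordinary symbol whose 5 pairs moved one way, up to 2 called members of smallest adjusted p per list, and Rela. Other list members were picked after their values were seen, and lists were described by counts and medians with no test. Alternatives covered scaling, background (normexp, offset 50), filters, probes, blocks and each pair left out. The number of arrays limits the precision.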

Additional observations from a re-analysis of the deposited data

Results flagged for a closer look

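Of 87 sets of 5 pairs (62 named genes, 24 list medians and the array brightness), 3 had 1 pair standing apart, by a gap of over 0.71 of the range. Chance gives about 1 set in 20 where sets are independent and unselected. These sets share the same arrays, and most are genes picked by their change over the pairs, so that rate does not apply to them. Gipr rose by 4.65 in the 1-361+362-549 pair and by 1.34 to 2.13 in the other 4. The median of the cytosolic chaperone list was -0.57 in the 1-361+362-549 pair and -0.11 to 0.04 in the others. The median of the cholesterol list was 0.49 in the D361E pair and 0.80 to 0.92 in the others. None of the 62 named genes had a called difference between constructs in its change with round (0 called in limma's F-test with round 3 as a yes or no term, where 13 of the 62 and 2034 of all 15194 genes had an unadjusted p under 0.05). The way the named genes were picked favours like changes in all constructs, so this 0 cannot decide the question.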

How the results depend on the processing

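For round 3 against round 1 (4131 genes called), the count was 1668 without scaling (747 higher, 921 lower), 2451 with normexp, 1212 without a filter, 7035 with slide as a random block and 147 with slide in place of construct (chosen after seeing the data). The fit with slide as a random block took a correlation of 0.56 between arrays of the same slide. Leaving out each pair gave 1446 to 4586. Without pairing by construct (no replicate block) it was 3133, and 6 named calls were lost. The construct F-test (345 genes) gave 553 without scaling, 150 with normexp, 127 without a filter, 2171 with slide as a random block, 143 without a round term and 73 to 309 with 1 pair left out.

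Round 2 against round 1 (0 genes) gave 1568 without scaling (1537 higher, with the median of all genes at 0.17), 4 over all 17 arrays and 1154 with slide as a fixed block. Round 3 against round 2 (3906 genes) gave 2074 without scaling (442 higher and 1632 lower, against 1833 and 2073, with the median of all genes at -0.15), 751 without a filter, 2353 without the replicate block, 6730 with slide as a fixed block and 1079 to 4013 with 1 pair left out. Slopes that differ between constructs (0 genes) gave 0 to 2 with 1 array left out and 1 with round 3 as a yes or no term, chosen after seeing the data (2034 of 15194 genes at an unadjusted p under 0.05, against 626 of 15161). The brightness change of -0.05 was 0.023 for the median signal and -0.17 to 0.017 with 1 pair left out, turning sign without 1-361 (0.014) or 1-361+362-549 (0.017).

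Of 61 named calls 14 held under all 20 settings, 2 (H1f3 and Tssk6, both too dim for the filter on all arrays) held under the 19 that could be computed, and 45 were lost with slide in place of construct, 19 of these also elsewhere. The 45 included Slc2a1, Ero1a, Msmo1, Lss, Cdt1, Cdc6, Ccng2, Xbp1 and H3c1. Bnip3, Rrp12, Nop56, Ppat, Ccne1 and Kdm4b were among the 14 that held. Calls lost without scaling were those of Rps2, Dusp6, Npc2, Sdhc, Tnfrsf1a, Gclc, H2-T22, Hspa4l and Pecam1, and with normexp those of Sdhc, Gem, Erap1 and Csf2ra. Without a filter, Rps2, Ahsa1, Sdhc, Gusb, Tnfrsf1a, Gclc, Trim2, Gipr and H2-T22 lost theirs. Rela, not called, turned to -0.053 with quantile normalization and -0.048 without scaling, and was -0.019 to 0.042 with 1 pair left out (-0.019, -0.0042 and -0.0012 without WT, D361E and 1-361). The median of the glycolysis and hypoxia list was 0.36 to 0.56 over the 20 settings, that of cholesterol 0.62 to 0.76, of ribosome biogenesis -1.09 to -0.94 and of DNA replication -0.73 to -0.53. The cause of these changes was not tested.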

Other observations

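The calls between rounds were not spread evenly over probes of different GC content. In 5 classes from 15% to 33.3% up to 50% to 91.7%, the share of genes called higher was 16.5%, 17.2%, 14.4%, 13.1% and 9.73% from the lowest to the highest class, and the share called lower was 14.9%, 12.5%, 12.8%, 13.1% and 12.3%. Higher calls numbered 904 and lower calls 659 in the class from 35% to 38.3%, with 5271 genes, against 274 and 347 in the highest class of 2816. The median change was 0.03 to 0.05 in all 5 classes. In 5 classes of mean level the median change was -0.004 to 0.08. The part of GC content in the other results was not tested.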
